A study of Mus musculus with 13 samples.

Results

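The genes described here make and sense the prostaglandins and leukotrienes, lipid signals derived from arachidonic acid. They are the 10 entries named Ptgs1, Ptgs2, Ptges, Ptgds, Hpgds, Alox5, Alox5ap, Ltc4s, Ptger4 and Hcar2, picked by gene name out of 21056 genes listed in all 4 group tables, and all 10 had enough counts to be tested. The study sequenced RNA of mouse brain in 13 libraries to compare the response to a stroke with microglia present and with microglia depleted. All mice were labelled CX3CR1creER/+:R26iDTR/+, that is, 1 Cx3cr1 allele drove a Cre recombinase that tamoxifen switches on, and a diphtheria toxin receptor was made where Cre had acted. Cx3cr1 is active in microglia and in other mononuclear phagocytes, so the labels alone do not say which of these cells the toxin reached.

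Mice received 2 oral doses of tamoxifen at 7 to 8 weeks of age. Starting 30 days later, the depleted groups received diphtheria toxin at 50 ng per g on 3 days, and the control groups received saline. Male mice then had sham surgery or a transient occlusion of the right middle cerebral artery (tMCAO) for 60 min with a nylon filament. The surgery protocol gives an age of 6 to 8 weeks, which does not match 30 days after tamoxifen. The groups were sham_MG_CON (saline, sham surgery, n = 3), sham_MG_DE (toxin, sham surgery, n = 4), tMCAO_MG_CON (saline, occlusion, n = 4) and tMCAO_MG_DE (toxin, occlusion, n = 2). No group lacked tamoxifen or the Cre allele. Neither the part of the brain nor the time from occlusion to sampling is given in the sources used here.

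Arachidonic acid is freed from membranes by phospholipases A2. The cyclooxygenases, encoded by Ptgs1 and Ptgs2, turn it into prostaglandin H2, which separate synthases convert into prostaglandin E2 (Ptges), prostaglandin D2 (Ptgds, Hpgds), thromboxane or prostacyclin. 5-lipoxygenase (Alox5), presented with its substrate by the protein FLAP (Alox5ap), makes leukotriene A4, which leukotriene C4 synthase (Ltc4s) joins to glutathione. Ptger4 encodes the prostaglandin E2 receptor EP4, and Hcar2 the receptor for hydroxybutyrate and nicotinic acid, whose activation in macrophages and skin cells is known to release prostaglandins. In the brain, Ptgs2 is made by excitatory neurons and by inflamed vessels, Ptgs1 and Hpgds by microglia, and Ptgds by leptomeninges, choroid plexus and oligodendrocytes.

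The sequences before the starts of Ptgs2, Ptgs1 and Hpgds are shown because the results below turn on these genes and their windows hold marked letters: Ptgs2 was higher with occlusion in both settings, Hpgds lower after depletion in both, and Ptgs1 was lower after depletion in sham and higher with occlusion after depletion. Each sequence runs from 250 bases before to 50 bases after the start given by RefSeq on GRCm38.p6, and 8 of the 10 genes were matched, Alox5ap and Hcar2 not. Capitals mark the letters GAGGAAGT (bound by PU.1, the master factor of macrophages and microglia), TTNCGCAA (bound by C/EBP factors), TGACG (the core of a cyclic AMP response element) and CACGTG (an E-box), searched on both strands. In Ptgs2 the TGACG match lies on the reverse strand and overlaps the E-box, so that both are marked as 1 run. Ptgs2 lies at chr1:150099781-150100080 on the forward strand, Ptgs1 at chr2:36230176-36230475 on the forward strand and Hpgds at chr6:65144681-65144980 on the reverse strand.
Ptgs2: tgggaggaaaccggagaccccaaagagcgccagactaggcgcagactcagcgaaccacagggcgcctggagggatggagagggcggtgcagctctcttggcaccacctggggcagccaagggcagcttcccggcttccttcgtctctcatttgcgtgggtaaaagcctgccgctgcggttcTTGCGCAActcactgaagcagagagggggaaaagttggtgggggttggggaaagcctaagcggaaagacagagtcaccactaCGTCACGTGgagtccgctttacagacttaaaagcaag
Ptgs1: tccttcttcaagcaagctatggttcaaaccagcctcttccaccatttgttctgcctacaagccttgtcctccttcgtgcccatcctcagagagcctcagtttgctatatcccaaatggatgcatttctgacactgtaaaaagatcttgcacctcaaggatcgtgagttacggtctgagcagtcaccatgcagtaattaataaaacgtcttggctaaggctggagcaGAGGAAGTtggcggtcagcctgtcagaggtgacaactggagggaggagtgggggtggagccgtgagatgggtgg
Hpgds: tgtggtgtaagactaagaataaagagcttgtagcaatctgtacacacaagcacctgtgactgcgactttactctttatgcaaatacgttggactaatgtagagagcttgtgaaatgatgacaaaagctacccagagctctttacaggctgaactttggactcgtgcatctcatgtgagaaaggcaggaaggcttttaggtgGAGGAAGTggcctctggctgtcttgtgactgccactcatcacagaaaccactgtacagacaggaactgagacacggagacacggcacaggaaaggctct
The PU.1 letters were at positions -24 to -17, counted from the RefSeq start, of Ptgs1 and -49 to -42 of Hpgds, and in none of the other 6 matched genes. Among 32851 mouse windows of the same length, 3.2% held them. The C/EBP letters were at -69 to -62 of Ptgs2 (0.798% of all windows), TGACG at 14 to 18 (20.8%) and the E-box at 17 to 22 (7.15%). The letters TGANTCA (AP-1, 7.81% of windows) were found in Ptgds alone, at -35 to -29. GGANTTTCC (NF-kB, 1.25%) and TATAAA (the TATA box, 13.6%) were in none of the 8 windows. A match describes letters in these windows and not a bound site.

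Libraries held 16239763 to 22080367 counts over the 21056 genes, and 16940 genes were tested. Levels are given as CPM, the count as a share of the scaled library total in the usual per-million unit, and comparisons between genes use the deposited FPKM, which also divides by gene length. Changes are log2 fold changes ± SE, and each p is edgeR's (quasi-likelihood), adjusted over all genes tested. Neuronal markers summed to 7995 to 8433 CPM in sham_MG_CON, 7223 to 8247 in sham_MG_DE, 6542 to 7179 in tMCAO_MG_CON and 6584 to 6792 in tMCAO_MG_DE. With occlusion, 2 of 6 were lower and 0 higher in both settings, and depletion in occluded mice gave 1 higher. Their part in the results below was not tested. Microglia markers (10 genes, among them Tmem119 and P2ry12) summed to 283 to 328 CPM in sham_MG_CON, 29.2 to 67.3 in sham_MG_DE, 308 to 411 in tMCAO_MG_CON and 38.4 to 41.1 in tMCAO_MG_DE, with 10 of 10 lower after depletion in sham and in occluded mice. Markers of border macrophages went the other way in sham mice (6.76 to 8.85 against 32.4 to 45 CPM, 7 of 8 higher). Neutrophil markers reached 34.6 CPM in sham_MG_CON replicate 2 and 35.7 CPM in sham_MG_DE replicate 3, against at most 13.8 CPM in the occluded groups. Replicate 1 of sham_MG_DE stood apart, since across genes it correlated at 0.98 to 0.983 with sham_MG_CON and at 0.976 to 0.978 with its own group. For replicate 4 of tMCAO_MG_CON the treatment entry says sham surgery while its title says occlusion, and the title was followed. In bulk tissue, fewer cells of a type and less RNA per cell cannot be told apart.

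In sham_MG_CON the levels per length spanned a wide range. Ptgds led at 118 ± 44.7 FPKM (SD, n = 3), followed by Ptgs2 at 2.76 ± 0.14, Ptgs1 at 2.61 ± 0.155, Ltc4s at 1.63 ± 0.434 and Alox5ap at 1.45 ± 0.0882 FPKM. Ptges at 0.883 ± 0.04 and Hpgds at 0.819 ± 0.0886 came next. Ptger4 at 0.175 ± 0.0211, Alox5 at 0.0863 ± 0.0312 and Hcar2 at 0.019 ± 0.0165 FPKM were the least abundant. The library ranges overlapped for the neighbours Ptgs2 and Ptgs1, Ltc4s and Alox5ap, and Ptges and Hpgds, and for no other neighbours in this order.

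**Figure D1:**
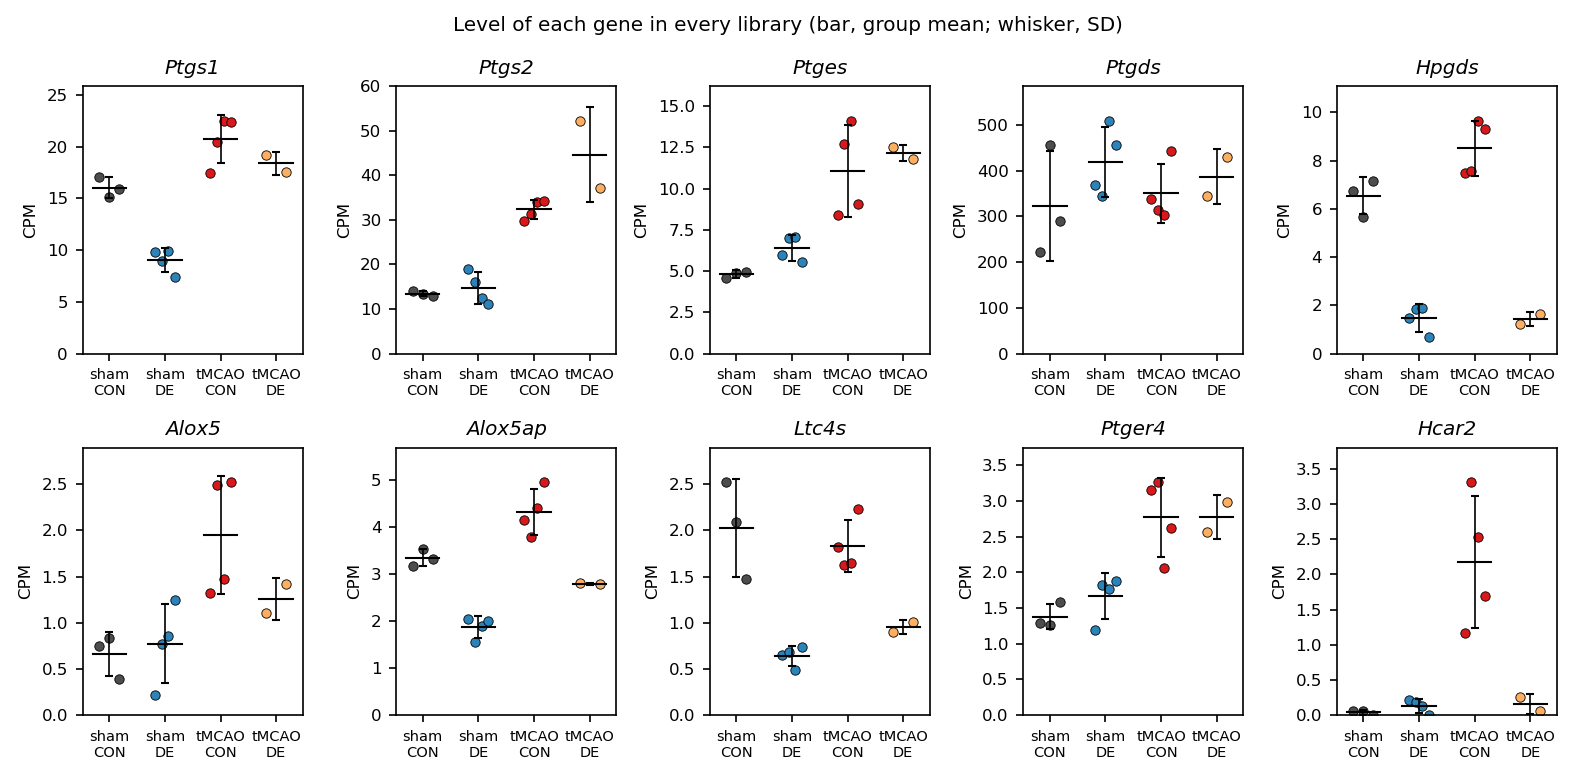
Level of each of the 10 genes in CPM (vertical axis, from 0, scaled per gene) in the 4 groups (horizontal axis). Each point is 1 library, the bar is the group mean and the whisker the SD. Hpgds is low in both DE groups, Ptgs2 is high in both tMCAO groups, and Hcar2 is above 1 CPM in tMCAO_MG_CON alone.

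Among the 10 genes, depletion in sham mice lowered 4 and raised none, occlusion with microglia present raised 4 and lowered none, occlusion after depletion raised 3 and lowered none, and depletion in occluded mice lowered 4 and raised none. Over all genes tested, 4.49% were called lower and 6.85% higher by depletion in sham, and 5.14% higher and 3.31% lower by occlusion with microglia present. The shares were 6.59% higher and 5.84% lower for occlusion after depletion, and 9.26% lower and 9.36% higher for depletion in occluded mice. At an unadjusted p under 0.05, 1 of the 10 was higher after depletion in sham (Ptges), 0 were lower in either occlusion comparison and 1 was higher after depletion in occluded mice (Ptgs2). The DESeq2 and limma alternatives called 0 of the 10 in those 4 directions too. Among the edgeR alternatives, Ptgs2 was called higher after depletion in occluded mice in the fit of those groups alone (edgeR adjusted p = 0.0487) and without sham_MG_DE 1 (0.039). The limma fits used the deposited FPKM without TMM scaling, and their calls for occlusion leaned higher. With microglia present they called 1522 and 1471 of all genes higher and 263 and 265 lower (pseudocounts 0.1 and 1). In edgeR these were 870 and 560, so limma calls of an occlusion rise carry this limit. The median log2 change of the 10 was 0.17, 0.69, 0.65 and -0.40 in the 4 comparisons, against 0.00, 0.02, 0.00 and -0.01 over all genes. The 4 comparisons share groups in pairs, so their values are set side by side and not counted against each other.

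**Figure D2:**
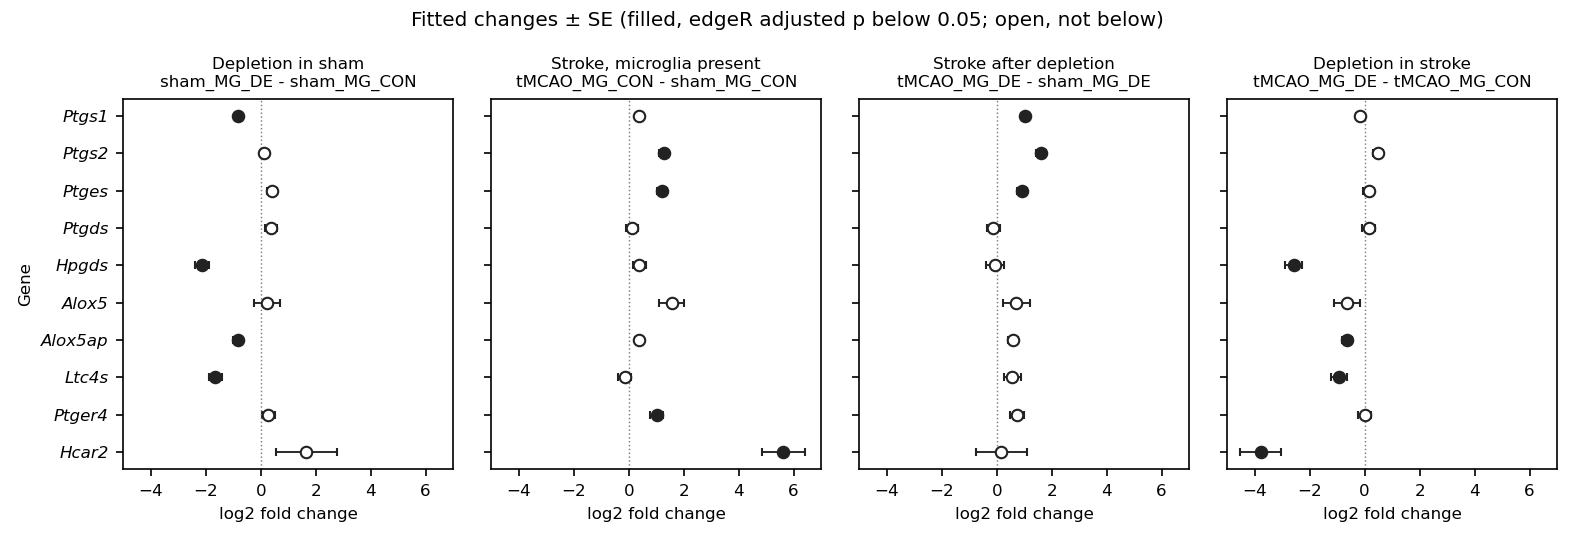
Fitted log2 fold change of each gene (horizontal axis) in the 4 comparisons, with the SE as whisker. Filled points passed edgeR's adjusted p of 0.05 and open points did not. The filled points lie left of 0 in both depletion panels and right of 0 in both occlusion panels; Hcar2 rests on 2 counts in sham_MG_CON and 10 in sham_MG_DE.

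Ptgs1, the cyclooxygenase that many cells make at rest, was lower after depletion in sham mice, and higher with occlusion once microglia were depleted. On GRCm38, the gene is on chromosome 2 (36230426 to 36252272, forward strand, 11 exon blocks). Its levels were 17.1, 15.1 and 15.9 CPM in sham_MG_CON and 9.84, 8.91, 9.93 and 7.41 CPM in sham_MG_DE. They were 17.5, 20.5, 22.5 and 22.4 CPM in tMCAO_MG_CON and 19.2 and 17.6 CPM in tMCAO_MG_DE. All sham_MG_DE libraries lay under all others, and the occluded groups overlapped. Ptgs1 fell by 0.83 ± 0.12 on the log2 scale after depletion in sham (edgeR adjusted p = 0.0024) and rose by 1.03 ± 0.13 with occlusion after depletion (edgeR adjusted p = 0.0008). With microglia present the occlusion change was 0.37 ± 0.12 (edgeR adjusted p = 0.073). It passed in DESeq2 (0.0456), in limma on log2(FPKM + 0.1) (0.033) and on log2(FPKM + 1) (0.025), and without sham_MG_DE 4 (0.0493) or tMCAO_MG_CON 1 (0.039). Depletion in occluded mice gave -0.17 ± 0.13 (95% interval -0.43 to 0.09, edgeR adjusted p = 0.39).

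Ptgs1 thus kept 56.3% of its control level after depletion in sham and 88.9% in occluded mice, where the summed microglia markers kept 14.3% and 11.2%. The test of that difference, the interaction of both treatments, gave 0.66 ± 0.18 (edgeR adjusted p = 0.27), so it did not pass. Of its exon bases, 3.81% overlap Gm43621 on the other strand.

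Ptgs2, the inducible cyclooxygenase, rose with occlusion whether or not microglia were present. GENCODE places it on chromosome 1, 150100031 to 150108227, forward strand, in 11 exon blocks. Its levels were 14.1, 13.3 and 12.9 CPM in sham_MG_CON, and 19, 16, 12.4 and 11.2 CPM in sham_MG_DE. They were 29.7, 31.3, 34.1 and 34.2 CPM in tMCAO_MG_CON, and 52.2 and 37.1 CPM in tMCAO_MG_DE. Each occluded library lay above each sham library, and both tMCAO_MG_DE libraries lay above tMCAO_MG_CON. The rise was 1.27 ± 0.17 with microglia present (edgeR adjusted p = 0.00081) and 1.60 ± 0.18 after depletion (edgeR adjusted p = 0.00027). Depletion gave 0.13 ± 0.17 in sham (95% interval -0.20 to 0.46, edgeR adjusted p = 0.65) and 0.47 ± 0.18 in occluded mice (edgeR adjusted p = 0.081). The latter passed in the fit of those groups alone (edgeR adjusted p = 0.0487) and without sham_MG_DE 1 (0.039). Across the alternatives that left out 1 library it ran from 0.20 to 0.69, so its size rested on the tMCAO_MG_DE libraries. The interaction was 0.34 ± 0.24 (edgeR adjusted p = 0.69).

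Neuronal activity also induces Ptgs2. Of 8 activity genes such as Fos and Egr1, 4 were lower and 0 higher with occlusion when microglia were present, and 1 was lower and 0 higher with occlusion after depletion. The 8 summed to 1058 to 1138 CPM in sham_MG_CON and 881 to 1726 in sham_MG_DE, but to 388 to 597 in tMCAO_MG_CON and 582 to 645 in tMCAO_MG_DE. Of 8 endothelial markers, 2 were higher and 0 lower with occlusion when microglia were present, and 4 were higher and 1 lower with occlusion after depletion. The part of either set in the Ptgs2 result was not tested.

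Set side by side per length, both cyclooxygenase transcripts were close to equal in sham_MG_CON, where Ptgs2 made up 51.4 ± 1.03% of their summed FPKM. The Ptgs2 share was 66.8 ± 4.33% in sham_MG_DE and 66.4 ± 1.18% in tMCAO_MG_CON, and reached 75.1 ± 3.3% in tMCAO_MG_DE. Behind the like shares in the middle groups lay different levels: Ptgs1 was lower at 1.49 ± 0.18 FPKM in sham_MG_DE, and Ptgs2 was higher at 7.08 ± 0.462 FPKM in tMCAO_MG_CON.

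**Figure D3:**
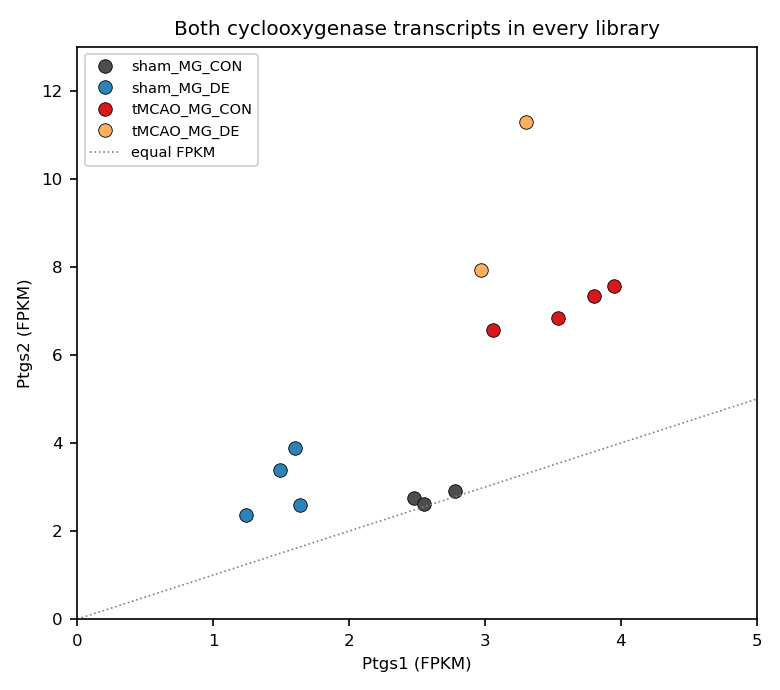
Ptgs1 (horizontal axis, FPKM) against Ptgs2 (vertical axis, FPKM), 1 point per library, with a dotted line of equal values. The sham_MG_CON libraries lie at the line, sham_MG_DE lies to its left at 1.24 to 1.64 FPKM of Ptgs1, and the occluded libraries lie above it at 6.57 to 11.3 FPKM of Ptgs2.

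Ptges, the inducible prostaglandin E2 synthase that often acts with Ptgs2, rose with occlusion in both settings. Its locus is chromosome 2, 30889471 to 30929863, reverse strand, 6 exon blocks. Its levels were 4.56, 4.91 and 4.97 CPM in sham_MG_CON and 5.95, 7, 7.07 and 5.53 CPM in sham_MG_DE. They were 8.39, 12.7, 14.1 and 9.07 CPM in tMCAO_MG_CON and 12.5 and 11.8 CPM in tMCAO_MG_DE. The sham groups did not overlap each other or the occluded groups, while the occluded groups did overlap. The rise was 1.20 ± 0.18 with microglia present (edgeR adjusted p = 0.002) and 0.93 ± 0.19 after depletion (edgeR adjusted p = 0.0089). The second call ended without tMCAO_MG_DE 1 (0.074) or 2 (0.062). Depletion gave 0.41 ± 0.18 in sham (edgeR adjusted p = 0.16) and 0.14 ± 0.19 in occluded mice (edgeR adjusted p = 0.65). Ptges2 and Ptges3, also named as prostaglandin E synthases, were more abundant per length. They were at 4.87 ± 0.297 and 12.1 ± 0.756 FPKM in sham_MG_CON against 0.883 ± 0.04 FPKM for Ptges. These are RNA levels and do not give the share of each in prostaglandin E2 synthesis. Ptges2 changed by 0.01 ± 0.12 with occlusion (edgeR adjusted p = 0.96) and passed in no comparison. Ptges3 fell by 0.36 ± 0.07 after depletion in sham (edgeR adjusted p = 0.0091) and rose by 0.27 ± 0.08 with occlusion after depletion (edgeR adjusted p = 0.036). The rise ended in 8 alternatives, with adjusted p up to 0.28, and with microglia present the occlusion change was 0.15 ± 0.07 (edgeR adjusted p = 0.21).

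Hpgds, the prostaglandin D2 synthase of blood and immune cells, had the steepest fall after depletion in sham among the 10 genes. The gene is on chromosome 6 (65117293 to 65144908, reverse strand, 6 exon blocks). Its levels were 6.76, 5.68 and 7.17 CPM in sham_MG_CON, against 1.46, 1.86, 1.89 and 0.684 CPM in sham_MG_DE. They were 7.5, 7.58, 9.65 and 9.31 CPM in tMCAO_MG_CON, against 1.21 and 1.62 CPM in tMCAO_MG_DE. All depleted libraries lay under all undepleted ones, and the depleted groups overlapped each other. Hpgds fell by 2.14 ± 0.25 in sham (edgeR adjusted p = 0.00051) and by 2.58 ± 0.31 in occluded mice (edgeR adjusted p = 0.00055). Both calls held in every alternative run. With occlusion the change was 0.38 ± 0.23 with microglia present (edgeR adjusted p = 0.35) and -0.07 ± 0.32 after depletion (edgeR adjusted p = 0.92). It kept 22.5% of its control level in sham and 16.6% in occluded mice, inside the range of the single microglia markers in sham (7.31 to 23.3%) and in occluded mice (4.79 to 17.5%).

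Ptgds, the prostaglandin D2 synthase abundant in brain, did not separate the groups. GENCODE places it on chromosome 2, 25466709 to 25470046, reverse strand, in 7 exon blocks. Its levels were 223, 456 and 291 CPM in sham_MG_CON and 369, 344, 509 and 457 CPM in sham_MG_DE. They were 339, 315, 303 and 444 CPM in tMCAO_MG_CON and 344 and 429 CPM in tMCAO_MG_DE. All 4 groups overlapped, and the spread within sham_MG_CON was about as wide as the whole range. The largest change, after depletion in sham, was 0.38 ± 0.22 (95% interval -0.05 to 0.80, edgeR adjusted p = 0.27). It was 0.17 without sham_MG_CON 1 (0.67) and 0.71 without sham_MG_CON 2 (0.055). The interval for occlusion with microglia present ran from -0.31 to 0.54. Markers of the cells known to make Ptgds also varied between libraries, and their sums are given in the order sham_MG_CON, sham_MG_DE, tMCAO_MG_CON and tMCAO_MG_DE. Leptomeningeal markers summed to 20.1 to 35.8, 31.9 to 44.6, 59.5 to 107 and 40.3 to 69.6 CPM, with 1 of 8 higher after depletion in sham and 4 of 8 higher with occlusion when microglia were present. Choroid plexus markers summed to 3.56 to 14.2, 2.54 to 5.81, 5.13 to 12.1 and 6.68 to 8.1 CPM, with 1 of 6 tested lower after depletion in sham. Oligodendrocyte markers summed to 2365 to 2901, 1864 to 2444, 1722 to 2555 and 1854 to 1991 CPM, with 2 of 8 lower after depletion in sham and 2 of 8 lower with occlusion when microglia were present. With occlusion after depletion, 1 leptomeningeal marker was higher and 1 oligodendrocyte marker lower. Depletion in occluded mice gave 1 leptomeningeal marker lower and 1 choroid plexus marker higher. The part of these markers in the Ptgds levels was not tested. Per length, Ptgds exceeded Hpgds by 149 ± 73.7-fold in sham_MG_CON and 120 ± 20.8-fold in tMCAO_MG_CON. After depletion the ratio was 998 ± 638 in sham_MG_DE and 799 ± 42.6 in tMCAO_MG_DE.

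Alox5, the 5-lipoxygenase, was low in the brain and its libraries scattered. Its locus is chromosome 6, 116410077 to 116461178, reverse strand, 12 exon blocks. Its counts were 14, 14 and 7 in sham_MG_CON, 4, 17, 14 and 22 in sham_MG_DE, 24, 52, 25 and 52 in tMCAO_MG_CON, and 22 and 28 in tMCAO_MG_DE. The tMCAO_MG_CON libraries, at 1.32 to 2.52 CPM, lay above sham_MG_CON at 0.395 to 0.838 CPM. The difference was 1.56 ± 0.45 and narrowly missed the threshold (edgeR adjusted p = 0.0502). It passed in 7 alternatives, with adjusted p of 0.016 in DESeq2 and of 0.034 and 0.031 in limma with pseudocounts of 0.1 and 1. It also passed in the fit of those groups alone (0.037) and without sham_MG_DE 1 (0.015), sham_MG_DE 4 (0.0455) or tMCAO_MG_CON 1 (0.0488). Depletion gave 0.22 ± 0.48 in sham (95% interval -0.73 to 1.17) and -0.64 ± 0.47 in occluded mice (-1.56 to 0.29), intervals wide enough to hold changes in either direction.

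Alox5ap, whose product FLAP is needed for leukotriene synthesis in intact cells, fell after depletion in both settings. The gene is on chromosome 5 (149264767 to 149288153, forward strand, 8 exon blocks). Its levels were 3.17, 3.53 and 3.33 CPM in sham_MG_CON and 2.05, 1.55, 1.89 and 2 CPM in sham_MG_DE. They were 4.14, 3.79, 4.41 and 4.95 CPM in tMCAO_MG_CON and 2.81 and 2.78 CPM in tMCAO_MG_DE. The 4 groups did not overlap, in the order sham_MG_DE, tMCAO_MG_DE, sham_MG_CON and tMCAO_MG_CON from low to high. Alox5ap fell by 0.84 ± 0.16 in sham (edgeR adjusted p = 0.0093) and by 0.63 ± 0.18 in occluded mice (edgeR adjusted p = 0.029). The sham call ended without sham_MG_CON 2 and sham_MG_DE 3 together, the pair with high neutrophil markers (0.068). The call in occluded mice ended in the fit of those groups alone (0.056), without tMCAO_MG_CON 3 (0.0527) or 4 (0.068) and without tMCAO_MG_DE 1 (0.13) or 2 (0.17). The occlusion changes were 0.37 ± 0.15 (edgeR adjusted p = 0.16) and, after depletion, 0.58 ± 0.18 (edgeR adjusted p = 0.0524). Both passed in limma on FPKM without TMM scaling, the first at 0.04 and 0.024 and the second at 0.02 and 0.025.

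Alox5ap kept 56% of its control level in sham and 64.8% in occluded mice, more than any single microglia marker. Of its exon bases, 189 (13.3%) overlap Gm19719 on the other strand, and whether counting used strand is not given in the sources used here. Gm19719 was at 0.586 ± 0.098 CPM in sham_MG_CON and 0.663 ± 0.124 in sham_MG_DE, where it changed by 0.19 (edgeR adjusted p = 0.75). Depletion in occluded mice gave 0.09 ± 0.33 (edgeR adjusted p = 0.88). With occlusion Gm19719 changed by 0.83 ± 0.32 when microglia were present (edgeR adjusted p = 0.14) and by 0.73 ± 0.34 after depletion (0.18). Its part in the Alox5ap counts was not tested.

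Ltc4s, which makes the parent of the cysteinyl leukotrienes, also fell after depletion. GENCODE places it on chromosome 11, 50236461 to 50238616, reverse strand, in 4 exon blocks. Its levels were 2.52, 2.09 and 1.47 CPM in sham_MG_CON and 0.649, 0.682, 0.488 and 0.741 CPM in sham_MG_DE. They were 1.82, 1.63, 1.65 and 2.23 CPM in tMCAO_MG_CON and 0.904 and 1.01 CPM in tMCAO_MG_DE. Depleted libraries lay under all undepleted ones, and the undepleted groups overlapped. Ltc4s fell by 1.65 ± 0.25 in sham (edgeR adjusted p = 0.0037), which held in every alternative run. In occluded mice it fell by 0.93 ± 0.29 (edgeR adjusted p = 0.039), and this call ended in several alternatives. They included DESeq2 (0.059), the table without a low-count filter (0.0514), the fit of those groups alone (0.0526) and the removal of any of 6 libraries, of which tMCAO_MG_DE 1 (0.19), tMCAO_MG_DE 2 (0.17), tMCAO_MG_CON 4 (0.087), tMCAO_MG_CON 1 (0.062), tMCAO_MG_CON 3 (0.0543) and sham_MG_CON 2 (0.0513) each did so. It also ended without sham_MG_CON 2 and sham_MG_DE 3 (0.0548). It kept 31.6% of its control level in sham and 52.3% in occluded mice, and the interaction was 0.72 ± 0.38 (edgeR adjusted p = 0.56). Of its exon bases, 268 (26.4%) overlap Gm26542 on the other strand, which had 9, 13, 14 and 6 counts summed over sham_MG_CON, sham_MG_DE, tMCAO_MG_CON and tMCAO_MG_DE.

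**Figure D4:**
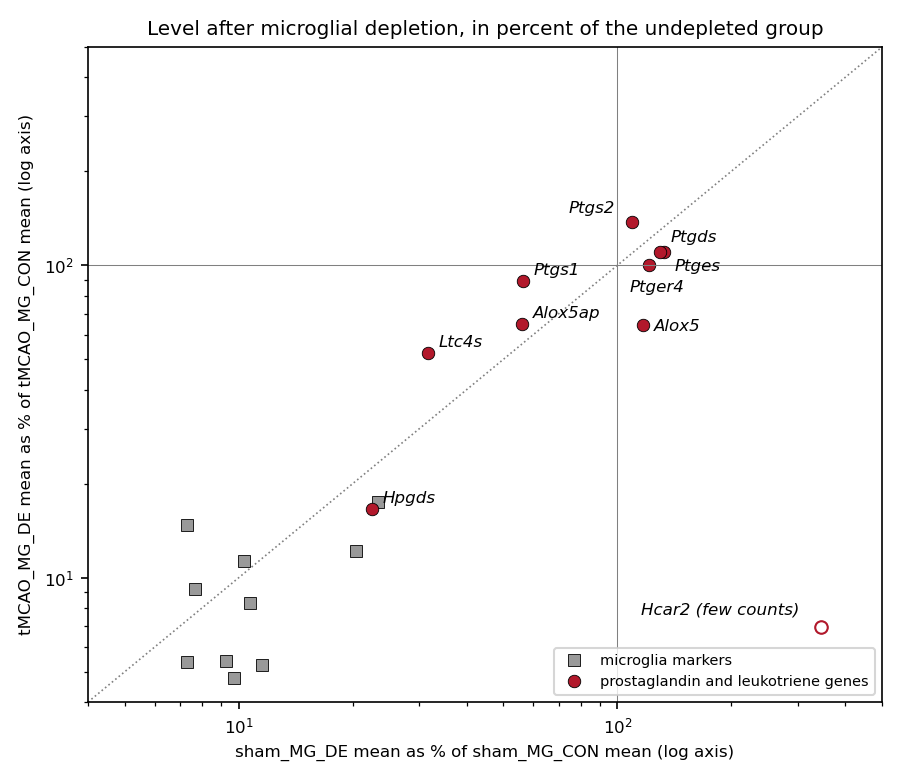
Mean CPM after depletion as a percent of the matching undepleted group, in sham (horizontal log axis) and occluded mice (vertical log axis), for the 10 genes (circles) and 10 microglia markers (squares), with a dotted line of equal values. Hpgds lies among the markers at 22.5% and 16.6%, whereas Ltc4s, Alox5ap and Ptgs1 lie between the markers and 100%; the open circle of Hcar2 rests on 2 and 10 counts in the sham groups.

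Ptger4, the EP4 receptor of prostaglandin E2, rose with occlusion when microglia were present. Its locus is chromosome 15, 5206661 to 5244187, reverse strand, 5 exon blocks. Its levels were 1.29, 1.26 and 1.58 CPM in sham_MG_CON, 1.19, 1.82, 1.77 and 1.88 CPM in sham_MG_DE, 3.15, 3.26, 2.06 and 2.62 CPM in tMCAO_MG_CON, and 2.56 and 2.99 CPM in tMCAO_MG_DE. Occluded libraries lay above sham libraries, and neither depletion pair separated. The rise was 1.01 ± 0.23 (edgeR adjusted p = 0.018). It ended without sham_MG_CON 1 (0.074), sham_MG_CON 2 (0.061) or tMCAO_MG_CON 2 (0.0515), and without sham_MG_CON 2 and sham_MG_DE 3 together (0.077). After depletion the occlusion change was 0.73 ± 0.25 (edgeR adjusted p = 0.068), and the interaction was -0.27 ± 0.34 (edgeR adjusted p = 0.83). Depletion in occluded mice gave 0.00 ± 0.24 (95% interval -0.47 to 0.47). Its exons overlap Ttc33 (82 bases, 1.23%) and the pseudogene Gm15937 (1015 bases, 15.3%) on the other strand. Ttc33 was more abundant than Ptger4, at 35.1 ± 12.4 CPM in sham_MG_CON and 32.2 ± 12.8 in sham_MG_DE. It was at 40.6 ± 2.5 CPM in tMCAO_MG_CON and 41.5 ± 1.35 in tMCAO_MG_DE. With occlusion it changed by 0.21 ± 0.28 when microglia were present (edgeR adjusted p = 0.71) and by 0.37 ± 0.31 after depletion (0.48). The strand setting is not given, and the part of Ttc33 in the Ptger4 counts was not tested.

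Hcar2 had few counts in all groups other than occluded mice with microglia. The gene is on chromosome 5 (123863570 to 123865499, reverse strand, 1 exon block). Its counts were 1, 1 and 0 in sham_MG_CON, 4, 4, 2 and 0 in sham_MG_DE, 21, 69, 43 and 35 in tMCAO_MG_CON, and 5 and 1 in tMCAO_MG_DE. The lowest tMCAO_MG_CON library, at 1.16 CPM, lay above the highest of any other group, at 0.251 CPM. Over the counts summed in each group and scaled to depth, tMCAO_MG_CON exceeded sham_MG_CON, with 2 counts, by a ratio of 58.2 (95% counting interval 15.9 to 484, edgeR adjusted p = 0.0012). It exceeded tMCAO_MG_DE, with 6 counts, by a ratio of 14.5 (6.52 to 40.1), and the fitted change was -3.79 ± 0.73 (edgeR adjusted p = 0.0057), a size that rested on the 2 tMCAO_MG_DE libraries. It was -5.25 without tMCAO_MG_DE 1 (edgeR adjusted p = 0.026) and -3.08 without tMCAO_MG_DE 2, where the call ended (0.085). After depletion, occlusion gave a ratio of 1.13 (0.336 to 3.42, edgeR adjusted p = 0.93). The counting intervals cover counting error only.

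The interaction asks whether occlusion acted differently after depletion. Of the 10 genes, 0 passed in edgeR, where 0.0472% of all genes did. At an unadjusted p under 0.05, 1 was higher (Ptgs1, 0.66 ± 0.18) and 1 lower (Hcar2, edgeR adjusted p = 0.21). Hcar2 was the 1 gene of the 10 that DESeq2 (adjusted p = 0.028) and limma on log2(FPKM + 0.1) (adjusted p = 0.043) called, while limma on log2(FPKM + 1) called 0 (adjusted p = 0.089). With 2 tMCAO_MG_DE libraries and 2 counts in sham_MG_CON, this test had little depth for Hcar2. Its adjusted p in edgeR ran from 0.16 to 0.54 when 1 library was left out. The median of the 10 was -0.25, against -0.02 over all genes.

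Among 42 tested genes of the wider pathway, listed with earlier results known, 11 passed in at least 1 comparison and 31 in none. Depletion in sham gave 3 higher and 5 lower, occlusion with microglia present 3 higher and 0 lower, occlusion after depletion 2 higher and 0 lower, and depletion in occluded mice 1 higher and 4 lower. As shares of the 42, the higher calls were 7.14%, 7.14%, 4.76% and 2.38% in that order, against 6.85%, 5.14%, 6.59% and 9.36% of all genes tested. The lower calls after depletion were 11.9% in sham and 9.52% in occluded mice, against 4.49% and 9.26% of all genes. Medians were 0.10, 0.30, 0.09 and -0.10 in that order, against 0.00, 0.02, 0.00 and -0.01 over all genes. The interaction called 0 of 42 (unadjusted, 1 higher and 4 lower), and limma on log2(FPKM + 1) called 1. Without sham_MG_DE 1, 15 passed in the sham depletion comparison, and 3 did when either sham_MG_CON 1 or sham_MG_CON 2 was left out. For 0 genes lower with occlusion, the unadjusted counts were 1 with microglia present and 2 after depletion.

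At the head of the pathway, Pla2g4a, the cytosolic phospholipase A2 that frees arachidonic acid, rose with occlusion when microglia were present and was lower after depletion in occluded mice. Its levels were 3.27, 3.95 and 1.86 CPM in sham_MG_CON, 2.65, 1.95, 2.19 and 1.43 CPM in sham_MG_DE, 5.79, 7.53, 12.5 and 7.66 CPM in tMCAO_MG_CON, and 3.82 and 3.24 CPM in tMCAO_MG_DE. The tMCAO_MG_CON libraries lay above all others. It rose by 1.46 ± 0.30 (edgeR adjusted p = 0.01, or 0.0519 without sham_MG_CON 3) and was lower by depletion in occluded mice at -1.24 ± 0.34 (edgeR adjusted p = 0.023). The second call ended without tMCAO_MG_DE 1 (0.094) or 2 (0.18). Occlusion after depletion gave 0.78 ± 0.34 (edgeR adjusted p = 0.15) and depletion in sham -0.56 ± 0.31 (edgeR adjusted p = 0.26), neither past the test. Pla2g6, a calcium-independent phospholipase, fell by 0.38 ± 0.10 in sham and by 0.54 ± 0.12 in occluded mice (edgeR adjusted p = 0.032 and 0.01). The first ended in 10 alternatives, with adjusted p up to 0.14, and the second without tMCAO_MG_DE 2 (0.14).

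Tbxas1, thromboxane synthase, which macrophages and platelets express, was low in both depleted groups, as Hpgds was. It was at 2.62 ± 0.477 CPM in sham_MG_CON, 0.642 ± 0.318 in sham_MG_DE, 4.81 ± 0.382 in tMCAO_MG_CON and 0.982 ± 0.387 in tMCAO_MG_DE, with no depleted library above 1.26 CPM. It fell by 2.05 ± 0.31 in sham and by 2.28 ± 0.34 in occluded mice (edgeR adjusted p = 0.0028 and 0.0019), in every alternative run. Ptgis, prostacyclin synthase of vessels, rose by 1.52 ± 0.41 with occlusion (edgeR adjusted p = 0.036), from 0.432 ± 0.133 to 1.26 ± 0.391 CPM. That call ended in 8 alternatives, with adjusted p up to 0.15.

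The breakdown enzymes differed from each other. Hpgd, which inactivates prostaglandins, was at 3.33, 4.25 and 5.25 CPM in sham_MG_CON and 1.41, 1.18, 1.46 and 0.399 CPM in sham_MG_DE. It was at 4.25, 4.51, 6.23 and 5.58 CPM in tMCAO_MG_CON and 2.76 and 2.78 CPM in tMCAO_MG_DE. No depleted library reached an undepleted one. Hpgd fell by 1.93 ± 0.31 in sham (edgeR adjusted p = 0.0042). Depletion in occluded mice gave -0.89 ± 0.33 (edgeR adjusted p = 0.077), which did not pass. Hpgd rose by 1.31 ± 0.35 with occlusion after depletion (edgeR adjusted p = 0.027). The rise ended in the fit of those groups alone (0.1) and without tMCAO_MG_DE 1 (0.13) or 2 (0.14). Ptgr1, a reductase that inactivates leukotriene B4 and oxidised prostaglandins, rose by 1.84 ± 0.29 with occlusion when microglia were present (edgeR adjusted p = 0.0027), from 0.493 ± 0.178 to 1.78 ± 0.277 CPM. It was at 0.681 ± 0.111 CPM in tMCAO_MG_DE, lower by depletion at -1.38 ± 0.32 (edgeR adjusted p = 0.013, ending without tMCAO_MG_DE 1 at 0.1 or 2 at 0.087).

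**Figure D5:**
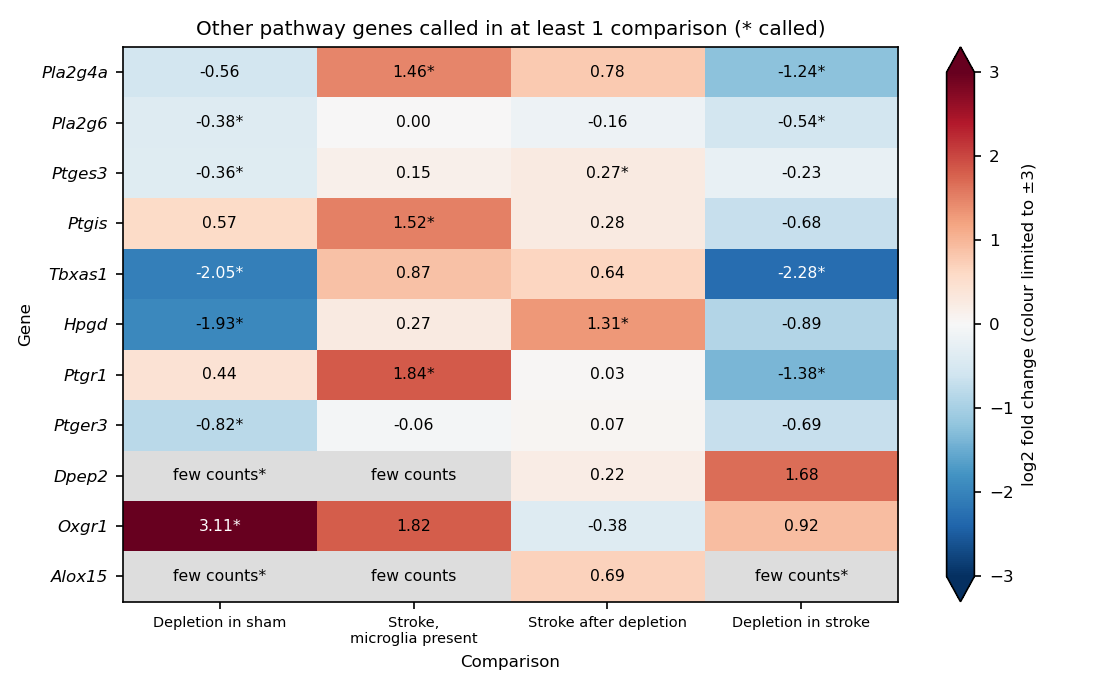
Log2 fold change (colour and number) of the 11 other pathway genes called in at least 1 comparison (rows) in the 4 comparisons (columns), with a star for a call. Grey cells have at most 3 summed counts in 1 group and carry no fold. Tbxas1 is blue in both depletion columns, at -2.05 and -2.28.

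Among the remaining receptors, Ptger3, the EP3 receptor, fell by 0.82 ± 0.21 after depletion in sham (edgeR adjusted p = 0.026), a call that ended in 8 alternatives with adjusted p up to 0.16. Ptger1 and Ptger2, the EP1 and EP2 receptors, passed in no comparison. With occlusion Ptger1 changed by 0.66 ± 0.31 (edgeR adjusted p = 0.21), and Ptger2, with 6 counts in sham_MG_CON, by 1.70 ± 0.75 (edgeR adjusted p = 0.19). Cysltr1, a cysteinyl leukotriene receptor, was at 1.01 ± 0.318 CPM in sham_MG_CON and 0.35 ± 0.235 in sham_MG_DE (-1.50 ± 0.50, edgeR adjusted p = 0.067). Ltb4r1, the main leukotriene B4 receptor, was too low to be tested, with 9 to 22 summed counts in a group. Lta4h, the leukotriene A4 hydrolase, was abundant at 34 ± 1.77 CPM in sham_MG_CON and changed by at most 0.13 in size in the 4 comparisons, none past the test.

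Alox15, Oxgr1 and Dpep2, all near 0 in control brain, were higher after depletion in sham. Alox15, the 12/15-lipoxygenase of resident macrophages and eosinophils, had 0 counts in each sham_MG_CON library and 1, 22, 19 and 17 in sham_MG_DE, at least 4.43-fold higher against a floor of 3 counts per library (edgeR adjusted p = 0.019). In occluded mice it had 1, 1, 0 and 0 counts in tMCAO_MG_CON and 15 and 36 in tMCAO_MG_DE, a ratio of 49.2 (95% counting interval 13 to 418, edgeR adjusted p = 0.008, ending without tMCAO_MG_DE 2 at 0.091). Oxgr1, a receptor for oxoglutarate and leukotriene E4, had 4, 0 and 5 counts in sham_MG_CON and 7, 46, 20 and 41 in sham_MG_DE, a ratio of 9.03 (4.59 to 20.2, edgeR adjusted p = 0.017). Dpep2, a dipeptidase that turns leukotriene D4 into E4, had 3 counts against 39, a ratio of 9.27 (2.95 to 46.9, edgeR adjusted p = 0.036). In sham_MG_DE 1, the library that stood apart, Alox15 and Oxgr1 were the lowest of their group. Without it they were called with adjusted p of 0.00098 and 0.0013. The sham calls of Alox15, Oxgr1 and Dpep2 ended in 6, 5 and 12 alternatives, with adjusted p up to 0.09, 0.076 and 0.13. Border macrophage markers summed to 14.6 to 25.2 CPM in tMCAO_MG_CON and 36.7 to 48.8 in tMCAO_MG_DE (3 of 8 higher), beside the sham values given above, and their part in these results was not tested.

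Across the 13 libraries, among 12395 genes with a mean of at least 1 FPKM, those most like Hpgds on log2 CPM were Laptm5 (Pearson r = 0.99), P2ry13 (0.98) and Unc93b1 (0.98). Most like Ptgs2 were Hspa1l (0.97), Parp3 (0.96) and Hspa1a (0.96). For Ptgs1 they were Atf5 (0.97), Fam107b (0.94) and Tmem173 (0.94), and for Alox5ap Dnajc3, Slco2b1 and Zcchc24 (0.95 each). Within the 10 genes, Ptgs1 and Alox5ap (r = 0.89), Ptgs2 and Ptges (0.88), Alox5ap and Ltc4s (0.87) and Hpgds and Ltc4s (0.85) were the closest pairs, and Hpgds and Ptges were at 0.09. The libraries fall into the 4 groups and share their depth and scaling, so these values describe likeness over groups.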

How the data were processed

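RNA of mouse brain was measured in 13 libraries of 4 groups, from animals with different identifiers. Each group has 1 deposited table, which lists for every gene a count and an FPKM of each library, and their mean FPKM. Counts, per the file headers, are unnormalised whole numbers. The deposited FPKM values divide counts by gene length and depth, and the mean column matched the mean over libraries to within 6.67e-06. Cufflinks 2.1.1, Cuffdiff and mm10 were used, per the submitters' processing notes. No aligner, counting tool or strand setting is given in the sources used here.

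Genes in all 4 tables were joined (22110 sham and 22160 tMCAO entries). Counts of 29 repeated symbols were summed and 24 date-like names left out. After TMM scaling and filterByExpr for a smallest group of 2, 16940 genes were fitted as 4 group means over the 13 libraries (edgeR 4.0.16, R 4.3.3). The 5 comparisons were two-sided, with p-values adjusted by Benjamini and Hochberg and called under 0.05. The common biological coefficient of variation was 15.2%. SE is the absolute log2 change over the square root of F. The 95% intervals of log2 changes use this SE with a normal multiplier, so they are somewhat too narrow for so few libraries. The script was tested on simulated data. Alternatives used RLE scaling, no low-count filter, DESeq2 1.42.0, limma 3.58.1 on log2 FPKM with pseudocounts of 0.1 and 1, the 2 groups compared alone, a replicate block, and each library left out.

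The 10 genes, the pathway and marker lists and the rule for named genes (the 10, pathway genes called at least once, 11 preset pathway genes and the 3 most alike genes of 4 members) were chosen with earlier results of these data known. Of 46 other pathway genes listed, 44 were in all tables and 42 tested. Coordinates are GENCODE's on GRCm38, and start windows RefSeq's on GRCm38.p6. The labels number the receptor locus differently between samples, which was read as 1 genotype. Each p of edgeR sets a change against the spread between these libraries, pooled over the 4 groups and moderated across genes. The spread used for tMCAO_MG_DE, with 2 libraries, thus comes in part from the other groups.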

Additional observations from a re-analysis of the deposited data

Results flagged for a closer look

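In groups of 4 libraries, 27 genes were checked for a library far from the other 3, in 54 groups, and 3 stood apart; chance flags about 1 in 20 groups. All 3 were in sham_MG_DE replicate 1. Ptger4 was lowest there at 1.19 CPM, against 1.77 to 1.88 CPM in the other sham_MG_DE libraries. Ltb4r1 was lowest at 0.108 CPM, against 0.342 to 0.366 CPM. Cysltr1 was highest at 0.703 CPM, against 0.227 to 0.244 CPM.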

How the results depend on the processing

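Over 21 settings, 1038 values of the 10 genes were recomputed. Of these, 971 kept their direction and side of the threshold, 26 lost a call, 20 gained one and 21 changed sign, all 21 uncalled in the main fit. Called values kept their direction in every setting. The cause of these changes was not tested.

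Libraries with the same replicate number did not move together across genes. Their deviations from the group mean correlated at -0.0641 to 0.106 (1 of 16 pairs over 0.1), against -0.138 to 0.136 for other numbers. A pairing that touched few genes would not show in these values. With the replicate block, calls over all genes numbered 823 for depletion in sham (1921 without it), 1341 for occlusion after depletion (2106) and 2 for the interaction (8), and 2 of the 10 genes for depletion in occluded mice (4), where Alox5ap (adjusted p = 0.096) and Ltc4s (0.056) did not pass. Ptger4 did not pass for occlusion with microglia present (0.056). Of the other pathway genes, the block ended the calls of Pla2g6 (0.062), Dpep2 (0.082) and Oxgr1 (0.061) for depletion in sham, Ptgis (0.087) for occlusion with microglia present, Ptges3 (0.09) for occlusion after depletion and Pla2g4a (0.0539) for depletion in occluded mice. In the fit of the 2 groups compared alone, calls numbered 645 for depletion in sham and 1137 for occlusion after depletion. Without sham_MG_CON 2 and sham_MG_DE 3, calls numbered 219 for depletion in sham and 1 for the interaction. The interaction had 111 calls in DESeq2 and 23 and 32 in limma with pseudocounts of 0.1 and 1, and 1 of the 10 genes in DESeq2 and in limma with 0.1. Both limma settings called 7 of the 10 for occlusion with microglia present, where they also called more of all genes higher than edgeR did.

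When 1 library was left out, calls over all genes ran from 591 (without sham_MG_CON 3) to 3725 (without sham_MG_DE 1) for depletion in sham, 564 (without sham_MG_CON 3) to 1814 for occlusion with microglia present, 453 (without tMCAO_MG_DE 2) to 2096 for occlusion after depletion, 346 (without tMCAO_MG_DE 2) to 3873 for depletion in occluded mice, and 1 to 15 for the interaction. Of the 10 genes, depletion in occluded mice called 1 (without tMCAO_MG_DE 2) to 5. They were 3 to 6 for occlusion with microglia present, 2 to 3 for occlusion after depletion and 4 throughout for depletion in sham. Where 1 tMCAO_MG_DE library is left, it is assumed to vary like the other groups.

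Changes of sign were confined to uncalled values. When 1 library was left out, the range of log2 values was -0.02 to 0.24 for Ptgs2, -0.10 to 0.53 for Alox5 (-0.06 with the replicate block), both for depletion in sham, and -0.09 to 0.45 for Ptgds and -0.33 to 0.04 for Ltc4s with occlusion and microglia present. For occlusion after depletion it was -0.29 to 0.03 for Ptgds, -0.30 to 0.13 for Hpgds (0.02 in limma with 0.1, 0.06 without sham_MG_CON 2 and sham_MG_DE 3) and -1.29 to 0.88 for Hcar2. For depletion in occluded mice it was -0.03 to 0.29 for Ptgds and -0.12 to 0.11 for Ptger4 (0.00 with RLE scaling).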
